A study of Mus musculus with 8 samples.

Results

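Glutathione S-transferases, the enzymes that join glutathione to reactive compounds, are described here through 8 genes, Gsta2, Gsta3, Gsta4, Gstm1, Gstp1, Gsto1, Mgst1 and Mgst3, out of the 27775 gene rows of each count table. The 8 were taken by name, in a list selected on measured values, since it was drawn up with the levels of these genes across cell groups and carcinoma states known, so their levels and counts below are descriptions. Single cells came from freshly dissociated pancreatic ductal adenocarcinomas of untreated KPC mice, 1 tumor of medium size and 1 of large size, captured with the 10x Genomics Chromium Single Cell 3′ kit (v2 chemistry). Both tumors were of the KPC strain, whose Pdx-1-Cre transgene has Cre driven by the Pdx1 promoter in the epithelial precursors of the pancreas. The labels give no age, and tumor-free pancreas was not analysed here. The 4 technical replicates listed for each tumor are pooled in 1 table, hence each size is 1 sample, no test was possible and no P-value is given.

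The family falls into cytosolic classes and membrane proteins. Gsta2, Gsta3 and Gsta4 belong to the alpha class, of which Gsta4 is known for clearing hydroxynonenal, an aldehyde from oxidized lipids, and Gsta3 in the mouse for conjugating the aflatoxin epoxide. Gstm1 is of the mu class, Gstp1 of the pi class, and Gsto1 of the omega class, which reduces substrates such as dehydroascorbate more than it conjugates. Mgst1 and Mgst3 are microsomal enzymes of the membrane family that also holds the leukotriene and prostaglandin synthases. Many of these genes are targets of NRF2, a transcription factor that answers oxidative and electrophilic stress through antioxidant response elements, and alpha class enzymes are typical of liver and gut epithelium.

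Levels are given in CPM, the unique molecular identifiers (UMIs, each a captured mRNA molecule) of a gene per 1000000 UMIs of a group of cells. The medium-size tumor held 2812 cells and 20301669 UMIs and the large-size tumor 1533 cells and 2239012 UMIs, with medians of 5456.5 and 1037 UMIs per cell, so the large-size tumor gave wider intervals. The tables share 5 cell barcodes. The 95% intervals are exact, Poisson for levels and binomial for shares, and cover counting error only. Clusters were computed without the GST genes and took a class from marker genes. In the medium-size tumor clusters 1 to 8 were epithelial-like (2330 cells), clusters 9 and 13 monocyte/macrophage-like (238), cluster 11 stromal-like (70) and cluster 14 endothelial-like (38). Clusters 10 (74 cells, with 7 of 10 fibroblast and 5 of 6 mesothelial markers) and 12 (62 cells, with 10 of 11 epithelial and 8 of 11 macrophage markers) stayed unnamed. In the large-size tumor 7 clusters were epithelial-like (1219 cells), cluster 2 was monocyte/macrophage-like (253), cluster 8 stromal-like (50) and cluster 10 endothelial-like (11). The epithelial-like class is not the same as carcinoma: cluster 4 of the large-size tumor had 8 of 10 enterocyte markers and its cluster 7 had 6 of 7 goblet markers, and whether these are carcinoma cells was not tested.

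Upstream sequences are shown for 3 genes, Gsta3 and Mgst1, of which clusters 4 and 6 held over 50% of the UMIs among epithelial-like clusters of the medium-size tumor, and Gstp1, which had 0 UMIs in the large-size tumor. RefSeq windows of 300 bases, 250 before and 50 after the annotated start on GRCm38.p6, were found for 7 of the 8 genes, with 9 windows in all. For Gsta4 none was matched in the set of windows used. Both strands were searched for TGACNNNGC, the core of the antioxidant response element, and for TGANTCA, the AP-1 element. Capitals mark the match in each window. The first lies at chr1:21240335-21240634 on the plus strand, the second, from the upstream of 2 Mgst1 starts, at chr6:138140277-138140576 on the plus strand, and the third at chr19:4037863-4038162 on the minus strand.
Gsta3: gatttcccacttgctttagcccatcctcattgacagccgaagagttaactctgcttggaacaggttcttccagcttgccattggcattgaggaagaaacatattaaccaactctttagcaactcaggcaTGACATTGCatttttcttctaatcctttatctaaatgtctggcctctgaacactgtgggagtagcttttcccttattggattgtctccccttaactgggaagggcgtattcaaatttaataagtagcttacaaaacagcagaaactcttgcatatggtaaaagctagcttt
Mgst1: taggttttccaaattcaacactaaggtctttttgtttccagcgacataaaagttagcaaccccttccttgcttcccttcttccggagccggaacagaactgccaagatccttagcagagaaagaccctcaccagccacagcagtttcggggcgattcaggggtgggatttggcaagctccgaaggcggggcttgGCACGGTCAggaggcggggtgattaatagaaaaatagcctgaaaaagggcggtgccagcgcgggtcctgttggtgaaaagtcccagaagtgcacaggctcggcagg
Gstp1: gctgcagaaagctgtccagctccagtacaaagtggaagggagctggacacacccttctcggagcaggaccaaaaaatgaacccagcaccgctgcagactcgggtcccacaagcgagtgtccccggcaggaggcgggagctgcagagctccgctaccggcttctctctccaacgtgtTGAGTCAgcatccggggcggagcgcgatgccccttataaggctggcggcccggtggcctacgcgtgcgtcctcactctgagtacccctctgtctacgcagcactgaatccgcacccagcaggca
Gsta3 held TGACNNNGC on the gene's own strand at -121 to -113 from the start, and Mgst1 held it on the opposite strand at -56 to -48 in the window shown and not in that of its other start. The pattern was not found in the windows of the other 5 genes, and 12.4% of all 32851 RefSeq mouse windows hold it. Gstp1 alone of the 7 held TGANTCA, at -74 to -68, against 7.81% of all windows. These are matches of letters and were not tested as sites.

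The first question was which cells of the tumor held the transcripts. In the medium-size tumor 7 of the 8 genes were higher in epithelial-like cells than in the macrophage-, stromal- and endothelial-like cells together, and Mgst1 alone was lower. Of the 7 genes with at least 200 UMIs in the cells compared, 5 were at least 2-fold higher (Gsta3, Gsta4, Gstm1, Gsto1 and Mgst3), with 10 CPM added to both levels, against 8.49% of all 7687 genes that reached this minimum. None was 2-fold lower, against 5.85% of all genes. Gsta4 stood at 815 CPM (95% interval 802 to 828) in epithelial-like cells and 110.4 (94.3 to 128) in the other named cells, a ratio of 7.39 (6.34 to 8.65). Endothelial-like cells, whose levels are not read as their own below, held 68 of the 168 Gsta4 and 113 of the 347 Gsto1 UMIs of the other named cells. Gsta3 stood at 197 and 27.6 CPM, a ratio of 7.15 (5.28 to 9.94). With clusters at the coarser resolution of 0.4, and 10 CPM added, Gsta4 went from 6.85 to 3.14, Gsta3 from 5.51 to 2.70 and Gsto1 from 4.01 to 2.67.

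Gsto1, the most counted of the 8 with 17719 UMIs, had 945 CPM (931 to 960) against 228 (205 to 253), a ratio of 4.15 (3.73 to 4.63). Mgst3 had a like ratio of 4.62 (3.91 to 5.50), from 428 and 92.6 CPM. Gstm1 had 107 and 33.5 CPM (ratio 3.19, 2.41 to 4.30). With 10 CPM added its ratio of 2.68 fell below the 2-fold line at resolution 0.4 (1.93) and where each cell was classed by its own markers (1.49). Gstp1 had 38.3 and 15.1 CPM (ratio 2.53, 1.68 to 4.03), and with 10 CPM added it was below the 2-fold line at 1.92, with a range of 1.24 to 2.44 over the alternatives. All 53 UMIs of Gsta2 were in epithelial-like cells, which with 0 UMIs elsewhere is at least 1.49-fold higher, against 3 counts over the other named cells. Mgst1 was the exception, with 189 CPM (183 to 196) against 249.7 (225 to 276), a ratio of 0.759 (0.682 to 0.846).

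In the large-size tumor, 5 of the 8 genes reached 200 UMIs and 4 of them, Gsta4, Gstm1, Gsto1 and Mgst3, were at least 2-fold higher in epithelial-like cells, against 15.3% of all 1547 genes tested. None was 2-fold lower, against 8.02% of all genes. Gsta4 had 441 CPM (412 to 471) against 21.4 (7.86 to 46.6), where 6 of its 869 UMIs lay in other named cells. With 10 CPM added its ratio was 14.3, or 4.49 where each cell was classed by its own markers, and that of Gsto1 went from 4.62 to 2.36. Gsto1 had 827 against 171 CPM, Mgst3 305 against 57.1 and Gstm1 117 against 24.97. The 24 UMIs of Gsta3 and the 12 of Gsta2 were all in epithelial-like cells. Mgst1 was again the lower one, with 179.7 CPM (161 to 200) against 353 (287 to 430), a ratio of 0.509 (0.406 to 0.643). The order of the ratios between the tumors was not tested.

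**Figure D1:**
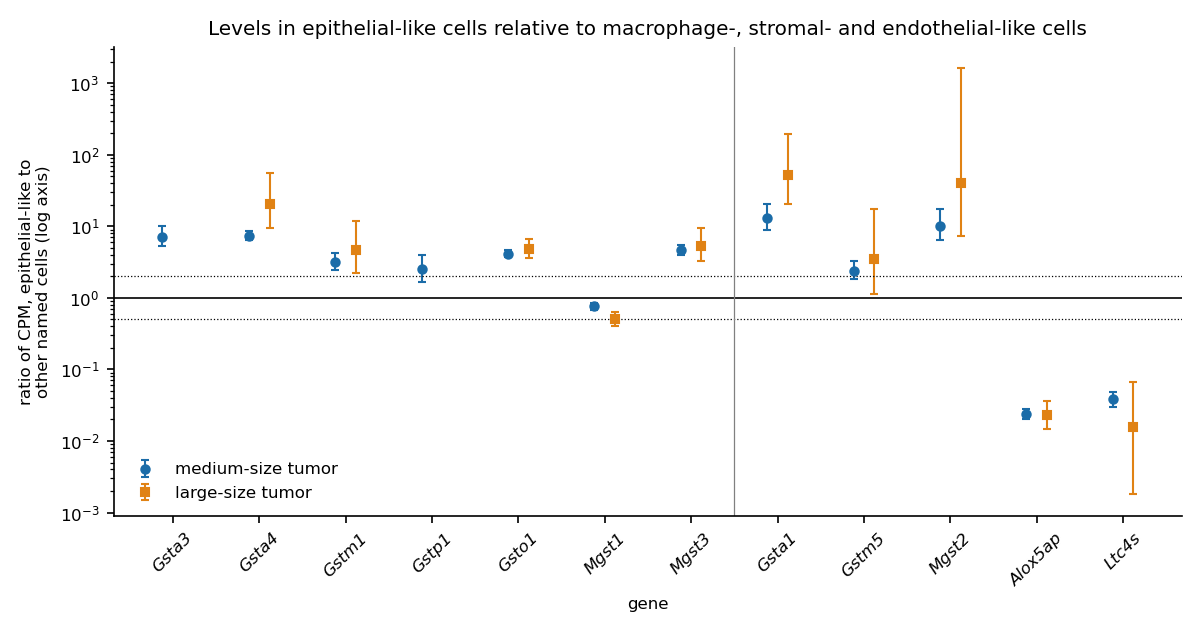
Ratio of the CPM in epithelial-like cells to that in macrophage-, stromal- and endothelial-like cells together (log axis), with 95% counting intervals, for 7 of the 8 genes (left of the grey line) and 5 relatives (right), in the medium-size tumor (circles) and the large-size tumor (squares). Dotted lines mark 2-fold in each direction, and a gene with 0 UMIs in either class has no point. Mgst1 lies below 1 in both tumors while Gsta4, Gstm1, Gsto1 and Mgst3 lie above 2 in both.

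UMIs of epithelial genes can also reach other cells' droplets, for example as free RNA or in droplets with more than 1 cell, so the level outside the epithelial-like cells was set beside that of 11 epithelial markers. The source of these UMIs was not tested. In the medium-size tumor the macrophage-like cells held these markers at 4.96% to 10.7% of their epithelial-like level (median 6.46%). Gsta4 (8.13%) and Gsta3 (8.81%) lay within this range. Mgst3 (16.5%), Gsto1 (21.5%), Gstp1 (22.7%, from 8 UMIs) and Gstm1 (36.6%) lay above it, and Mgst1 was at 149.7%. In the large-size tumor the marker range was wider, 0% to 18.8%. There Gsta4 (3.47%) and Gstm1 (17.4%, from 4 UMIs) fell inside it, Mgst3 (20.1%) and Gsto1 (22.2%) just above it, and Mgst1 at 164.5%. In stromal-like cells of the medium-size tumor the marker range was 9.33% to 27.0%. Gstm1 (12.8%), Gsta4 (13.1%), Gsto1 (13.6%), Gsta3 (19.4%) and Mgst3 (26.8%) lay within it, and Gstp1 (78.4%) and Mgst1 (142.8%) above it. In those of the large-size tumor it was 0% to 25.1%, with Gstm1 (37.5%, from 3 UMIs) and Mgst1 (334.8%) above it. In the medium-size tumor the endothelial-like cells held the epithelial markers at 30.1% to 58.2% of their epithelial-like level, and all 7 detected GST genes but Gsta3 (25.9%) lay in that range, so no level of these cells is read as their own.

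Mgst1, a membrane enzyme with peroxidase as well as conjugating activity, had the highest level of the 8 outside the epithelial-like cells, relative to the level inside them. In the medium-size tumor it had a UMI in 60.1% of the 238 macrophage-like cells and 50.6% of the epithelial-like cells, or in 47.5% and 31.3% after thinning every cell to 2500 UMIs. Its level was 283 CPM (250.1 to 320.1) in macrophage-like and 270.4 (220 to 329) in stromal-like cells, which do not differ beyond their intervals, and 639 (562 to 723) in unnamed cluster 10. In the large-size tumor, stromal-like cells had 602 CPM (432 to 816, 41 UMIs) and macrophage-like cells 296 (224 to 382). Gstp1 was the other gene near its epithelial-like level in stromal-like cells, at 78.4% of it, from 11 UMIs.

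**Figure D2:**
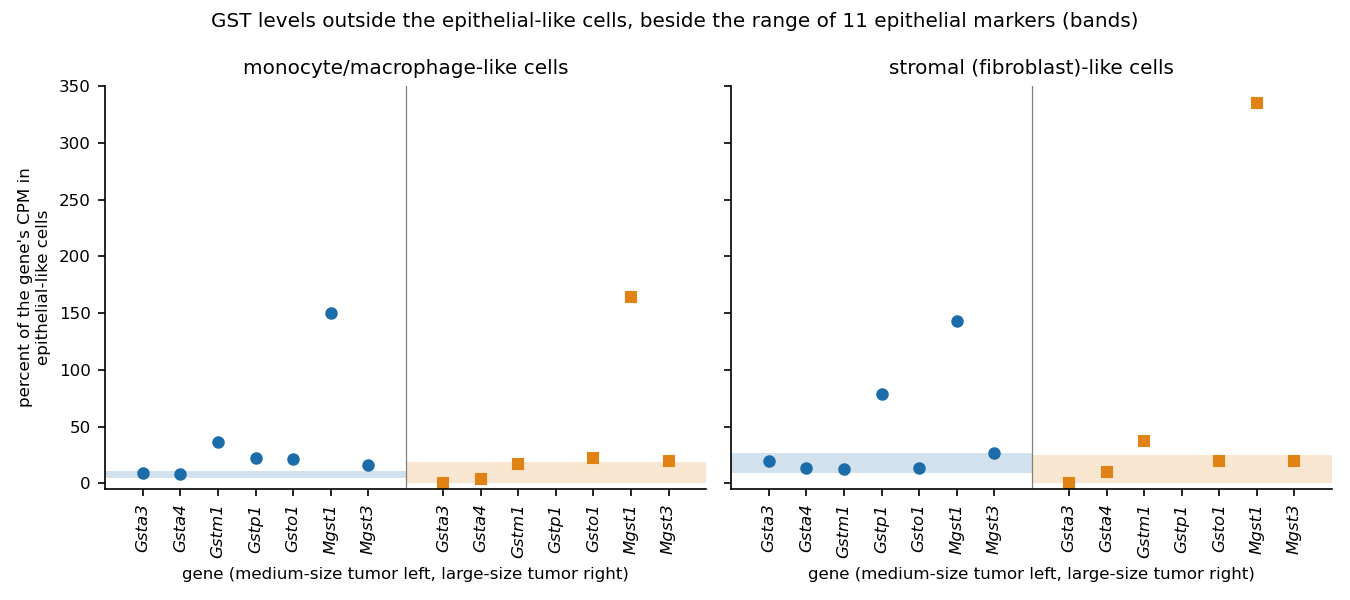
Level of each gene in monocyte/macrophage-like cells (left panel) and stromal-like cells (right panel) as a percent of its CPM in epithelial-like cells, medium-size tumor as circles and large-size tumor as squares. Bands give the range of 11 epithelial markers in the same cells, and Gstp1 has no point in the large-size tumor, where it was not counted. Mgst1 stands above 100 in both panels for both tumors, with Gsta3 and Gsta4 within the bands. In stromal-like cells Gsto1 and Mgst3 also lie within the bands.

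The next question was whether the genes vary among the epithelial-like clusters. In the medium-size tumor 5 of the 6 genes with at least 1000 UMIs in epithelial-like cells (Gsta3, Gsta4, Gstm1, Mgst1 and Mgst3) spanned at least 4-fold from the lowest to the highest cluster, with 10 CPM added, against 13.8% of all 2526 such genes, and Gsto1 spanned 3.05-fold. At the finer resolution of 1.2 Gsto1 spanned 5.64-fold and Mgst3 2.93-fold, and at 0.4 Mgst3 spanned 3.59-fold. The median span was 7.97-fold over the 6 genes and 1.99-fold over all genes tested. Clusters 4 and 6 were the top 2 for Gsta3, Gsta4 and Mgst1. They held 4 and 3 of 7 goblet markers, where the other epithelial-like clusters held 0 or 1, and whether they are carcinoma cells was not tested. Cluster 4 (282 cells) was led by Tff3, Ly6d, Reg1 and Ly6k, and cluster 6 (241 cells) by Dmbt1, Lcn2, Mmp7 and Sftpd, genes of mucosal secretion and defense. Together they held 22.4% of the epithelial-like cells and 16.4% of their UMIs, but 62.9% of the Gsta3 UMIs, 54.6% of the Mgst1 UMIs and 45.6% of the Gsta4 UMIs. For Mgst3 (24.0%), Gstp1 (23.8%), Gstm1 (21.1%) and Gsto1 (19.9%) the share was near that of cells and above that of UMIs.

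Gsta4 was highest in cluster 4 at 2728 CPM (2646 to 2811), followed by cluster 6 at 1756 (1688 to 1826) and cluster 1, the gastric pit-like cells led by Gkn1 and Gkn2, at 1034 (999.9 to 1069). The cycling cluster 2 had 528 CPM, cluster 5, led by Yap1 and Birc2, 467, cluster 7, led by Krt17, 337, and cluster 3, led by Mcpt8, Cldn6 and Hmga2, 319. Cluster 8, led by Inhba and Bmp2, was lowest at 114 CPM (99.5 to 131). Only clusters 7 and 3 had overlapping intervals among neighbours in this order. A Gsta4 UMI was present in 97.9% of the cells of cluster 4 and 33.2% of those of cluster 8, or in 95.7% and 16.6% after thinning. Cluster 8 had 3 of 11 epithelial markers, the fewest of the 8. Its Gsta4 level overlapped that of the stromal-like cells (107, 75.7 to 146), where Gsta4 was in the range of the epithelial markers. Whether the cluster 8 level is its own expression was not tested. Without cluster 8 the span was 8.33-fold instead of 22.0-fold.

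Gsta3 followed a steeper course, from 839 CPM (794 to 886) in cluster 4 and 666 (624 to 709) in cluster 6 to 184 (170.0 to 199) in cluster 1, 91.4 in cluster 5, 79.4 in cluster 2, 56.99 in cluster 7, 24.6 in cluster 8 and 16.1 (10.9 to 22.8) in cluster 3. Clusters 5 and 2, and clusters 8 and 3, had overlapping intervals. The macrophage-like cells, where Gsta3 was in the range of the epithelial markers, had 17.4 CPM (9.93 to 28.2), so the levels of clusters 8 and 3 are not read as expression. Within cluster 4, thinned cells ranged from 0 to 11 UMIs of Gsta3, with a median of 2, and 64 of the 282 cells had none.

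Mgst1 had the reverse order of the top 2 clusters, with 766 CPM (721 to 813) in cluster 6 and 506 (472 to 543) in cluster 4, and then 236 (214 to 260) in cluster 7. Clusters 1, 8, 5, 3 and 2 lay between 103 and 60.6 CPM, with overlapping intervals at each step. Both top clusters had more Mgst1 than the macrophage-like cells (283 CPM). The summed level of 11 macrophage markers was 1.86% of the macrophage-like level in cluster 6, the highest of the 8 epithelial-like clusters, and 1.47% in cluster 4, with 1 and 0 of the markers at 0, and the lowest was 0.838% in cluster 5.

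Gsto1 was broad, with a UMI in 82.5% to 98.2% of the cells of each epithelial-like cluster. It ran from 1416 CPM (1376 to 1457) in cluster 1 and 1323 (1266 to 1381) in cluster 4, which overlapped, to 458 (427 to 491) in cluster 7. Mgst3 ran from 775 CPM (732 to 821) in cluster 4 through 519.8 (496 to 545) in cluster 1 to 164 (146 to 184) in cluster 8. Without cluster 8 its span fell from 4.51-fold to 2.28-fold, below the 4-fold line. Gstm1 had another order, highest in cluster 5 at 226 CPM (208 to 244), then in cluster 6 at 174 (153 to 197), and lowest in cluster 7 at 37.6 (29.1 to 47.9). A single cell of cluster 5 held 61 Gstm1 UMIs of the 615 in that cluster. Gstp1 ranged from an interval of 48.4 to 73.5 CPM in cluster 4 to 21.1 (14.8 to 29.1) in cluster 7. Each neighbouring pair overlapped, and the interval of cluster 4 lay above those of clusters 5, 1, 8, 3 and 7. Gsta2 stayed between 0 and 8.47 CPM.

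**Figure D3:**
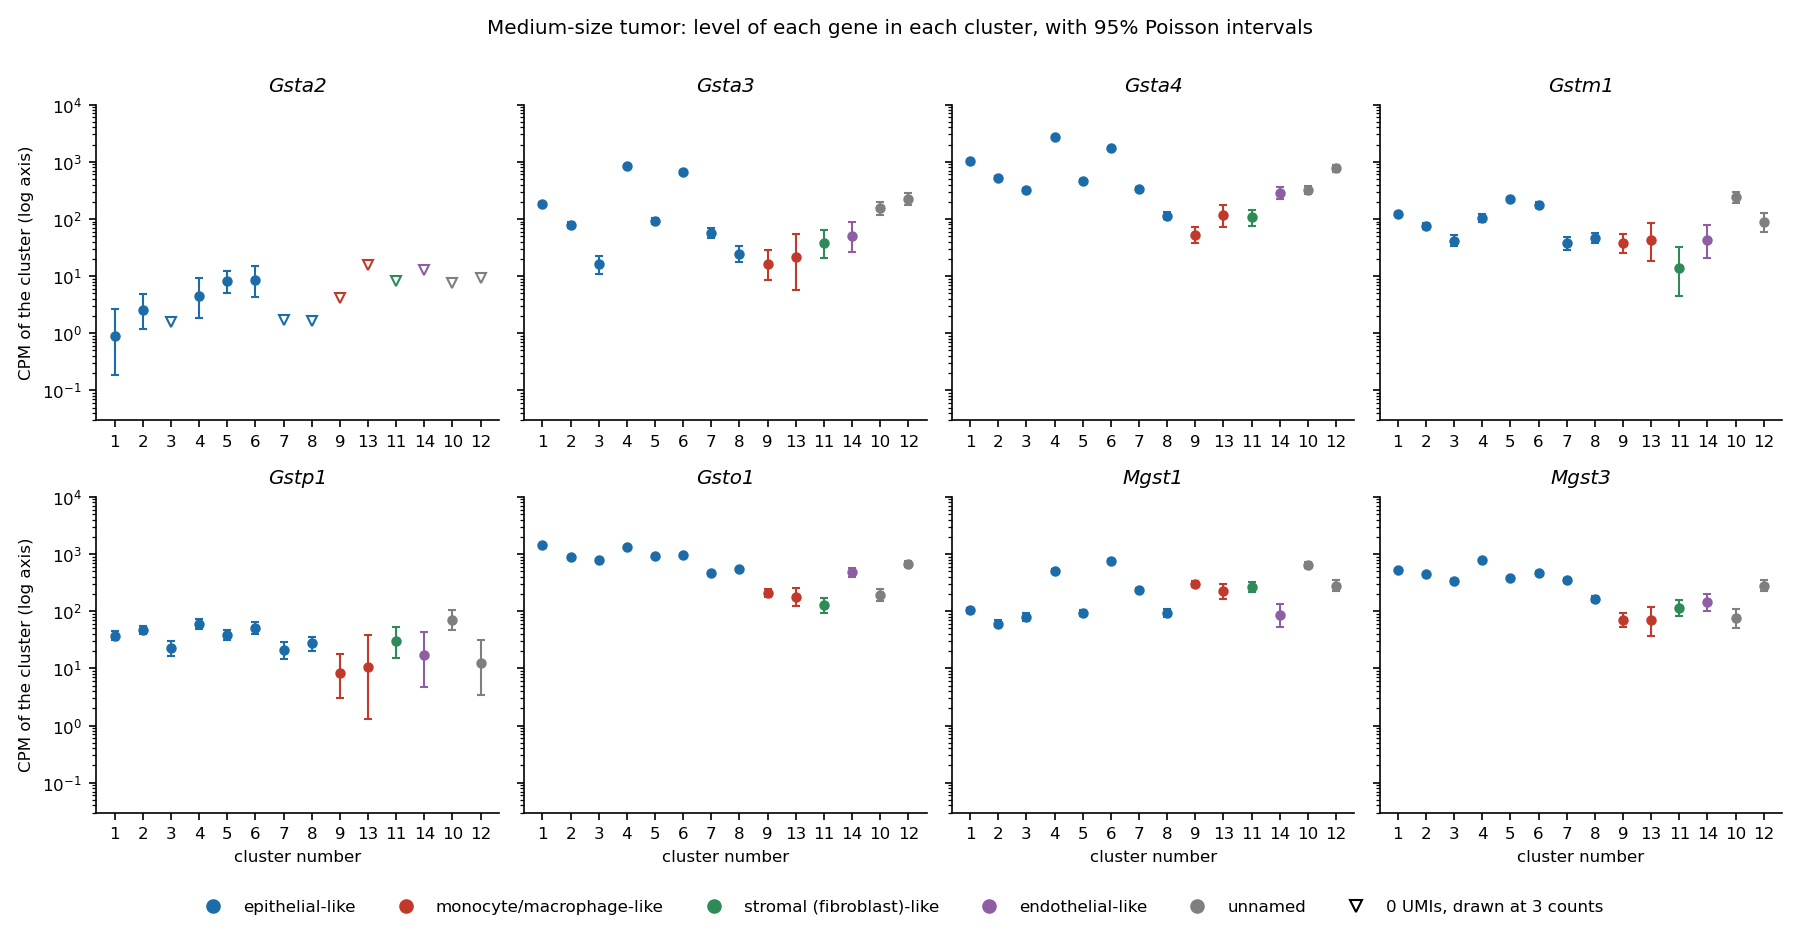
CPM of each gene (log axis, 1 panel per gene) in the 14 clusters of the medium-size tumor, ordered by class, with 95% Poisson intervals, and open triangles at the level of 3 counts where a cluster had 0 UMIs. Among epithelial-like clusters, 4 and 6 stand highest for Gsta3, Gsta4 and Mgst1 and 5 for Gstm1, unnamed cluster 10 is also high for Mgst1 and Gstm1, and Gstp1 lies between 21.1 CPM (cluster 7) and the interval of cluster 4 (48.4 to 73.5) in the epithelial-like clusters.

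Across the 2330 epithelial-like cells, thinned to equal depth, Gsta3 and Gsta4 had a Spearman rho of 0.520, the highest among the 28 pairs of the 8 genes. Within single clusters their rho was 0.0720 to 0.377 (median 0.332), below the pooled value in each of the 8. Gsta3 with Mgst1 had 0.366 over all cells and a median of 0.127 within clusters. Gsta4 with Gsto1 had 0.356 and 0.260, and Gsta4 with Mgst3 0.304 and 0.219. Pairs with Gstp1 or Gsta2 were at most 0.0841 over all cells, where few UMIs limit any correlation. These cells share 1 library, and no P-value was computed. Among 2526 genes with at least 1000 UMIs, those most like Gsta4 were Pglyrp1 (0.610), Lgals4 (0.569) and Fxyd3 (0.542). For Gsta3 they were Pglyrp1 (0.547), Ly6d (0.520) and Gsta4, and for Mgst1 Ly6d (0.458), Mmp7 (0.417) and Lcn2 (0.412). Lgals4 led for Gsto1 (0.376) and Mgst3 (0.308), with Gsta4 second and then Fxyd3 (0.292) and Krt19 (0.277). Gsta1 was nearest to Gstm1 (0.213), Gstp1 (0.1002) and Gsta2 (0.107). It was followed by Gsta3 (0.188) and Wfdc2 (0.181) for Gstm1, Dmbt1 (0.0906) and Tkt (0.0875) for Gstp1, and Txnip (0.0810) and Gsta3 (0.0803) for Gsta2.

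The large-size tumor showed its own high cluster. Cluster 9, 17 epithelial-like cells led by Upk3a, Sprr2f, Ly6d and Krt15, had 3773 CPM of Gstm1 (2941 to 4767, 70 UMIs), while the 6 other epithelial-like clusters lay between 37.1 and 202 CPM. It held 1.39% of the epithelial-like cells and 30.4% of their Gstm1 UMIs, and Gstm1 is among its 10 leading genes. Mgst1 (1886 CPM, 1314 to 2624) and Gsta4 (2425, 1769 to 3245) were also highest there, whereas Gsto1 (1886, 1314 to 2624) overlapped with the gastric pit-like cluster 6 (1434, 1302 to 1576). Mgst3 was at 539 CPM (258 to 991) in cluster 9, below cluster 4 at 673 (568 to 792) with overlap. The sum of 11 macrophage markers was 377 CPM there, 1.72% of the macrophage-like level and the highest of the 7 epithelial-like clusters, with 9 markers at 0, where 3 counts equal 162 CPM. The sum of fibroblast markers was 53.9 CPM against 16523 in stromal-like cells. With 17 cells of 1 tumor these values have no replicate.

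Among the remaining clusters, Gsta4 was highest in gastric pit-like cluster 6 at 980.2 CPM (872 to 1099) and lowest in cluster 1, led by Ggct and Ramp1 and with 3 of 11 epithelial markers, at 36.0 (20.6 to 58.5). That level overlapped the macrophage-like cells (15.3, 3.15 to 44.7), where Gsta4 was in the range of the epithelial markers, and is not read as expression. Clusters 4, 3, 7 and 5 lay between 585 and 350.2 CPM and overlapped in sequence. Mgst1 was 404 CPM (323 to 498) in the enterocyte-marker cluster 4 and 394 (303 to 504) in the goblet-marker cluster 7, above cluster 6 (222, 172 to 282), and 38.3 in cluster 1. Of the 12 Gsta2 UMIs, 10 came from cluster 4, which holds 19.0% of the epithelial-like cells. Of the 24 Gsta3 UMIs, 16 came from cluster 6 and 0 from cluster 4, which allows up to 13.9 CPM of Gsta3 at 3 counts.

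**Figure D4:**
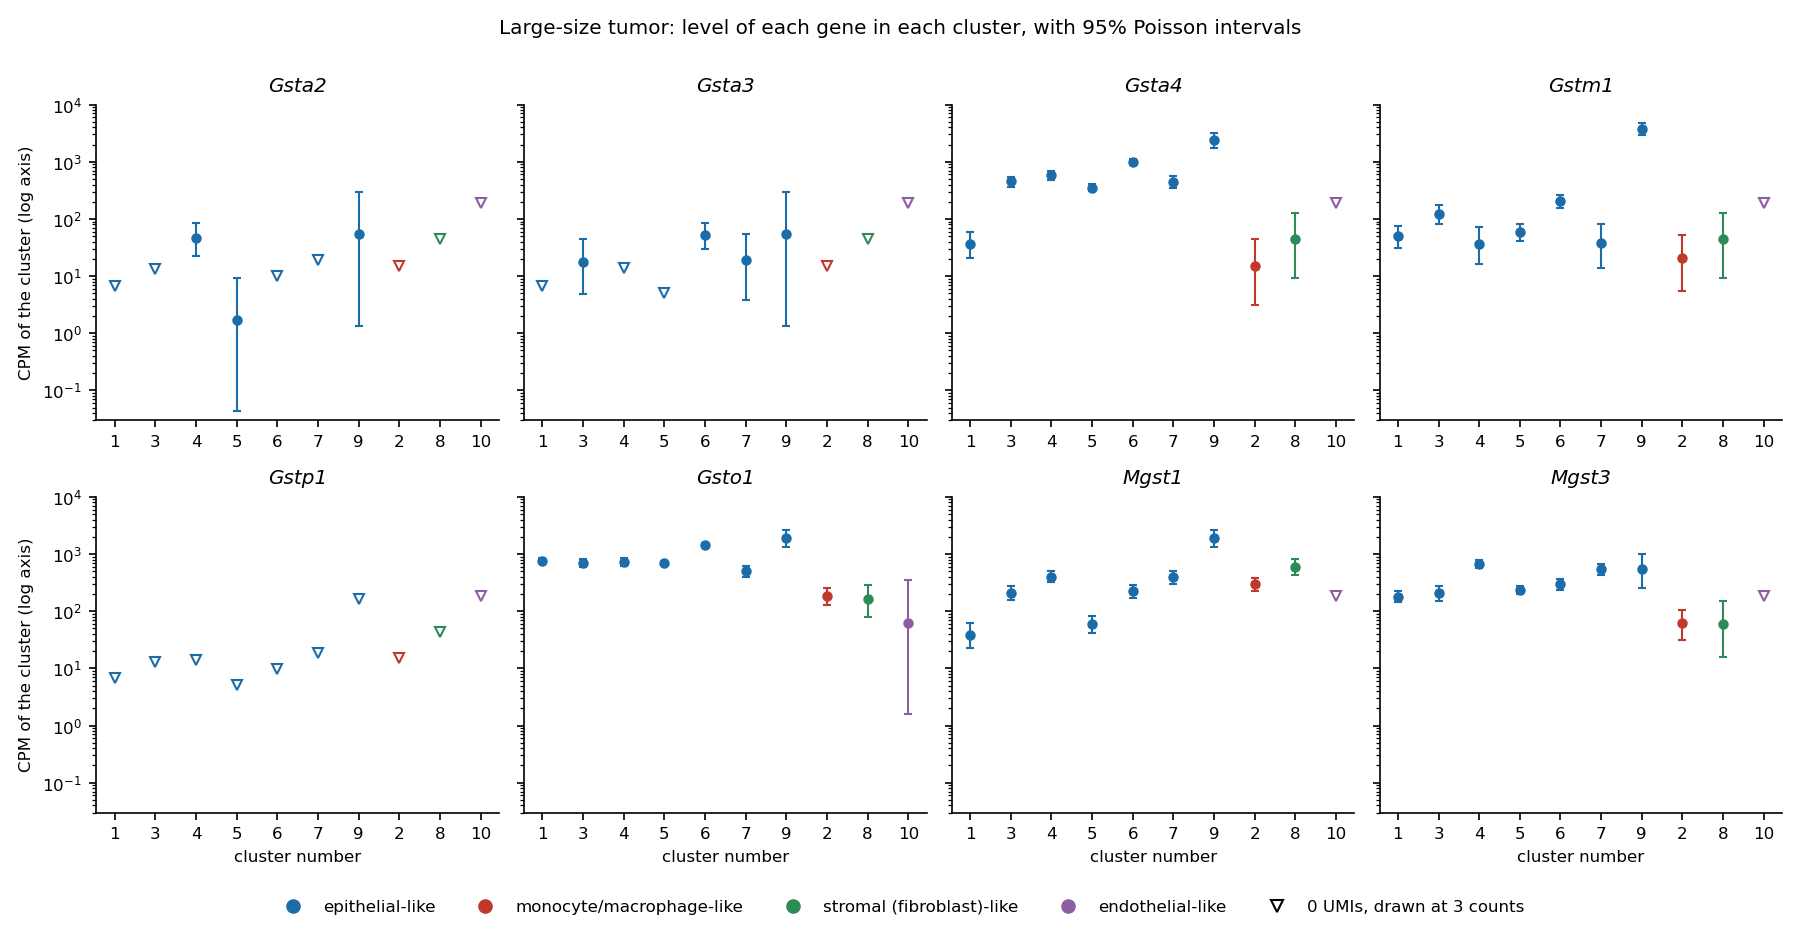
CPM of each gene (log axis, 1 panel per gene) in the 10 clusters of the large-size tumor, ordered by class, with 95% Poisson intervals, and open triangles at the level of 3 counts where a cluster had 0 UMIs. Cluster 9 (17 cells) stands apart for Gstm1 at 3773 CPM, and Gstp1 has 0 UMIs in each cluster.

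A last question was whether the tumors differ. Of the 7 genes with at least 200 UMIs in the epithelial-like cells of both tumors together, 2, Gsta3 and Gstp1, were at least 2-fold lower in the large-size tumor, against 9.08% of all 7633 genes, and 0 were 2-fold higher, against 3.24%. Gsta3 had 197 CPM (191 to 204) in the medium-size and 12.3 (7.85 to 18.2) in the large-size tumor, a ratio of 0.0621 (0.0397 to 0.0926). Gstp1 had 692 UMIs in medium-size epithelial-like cells and 0 in any cell of the large-size tumor, which is at least 25.01-fold lower against 3 counts over the large-size epithelial-like cells. Gsta4 had 815 and 441 CPM (ratio 0.541, 0.504 to 0.579), Mgst3 428 and 305 (0.712, 0.654 to 0.774) and Gsto1 945 and 827 (0.874, 0.830 to 0.920). Mgst1 (0.949, 0.848 to 1.06) and Gstm1 (1.10, 0.955 to 1.26) had intervals that include 1. The median ratio with 10 CPM added was 0.719 over the 7 genes and 0.922 over all genes tested. Tumor size cannot be told apart from anything else that differed between the 2 tumors. The Y-linked Ddx3y had 682 UMIs in the medium-size and 0 in the large-size tumor, and the sex of the mice was not tested.

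The epithelial-like class is made of different clusters in the tumors, so the ratios were also taken without some clusters, a choice made after seeing the data. Left out were clusters with more markers of another list than of the epithelial list among their 10 leading genes. They are called led by markers of another class below, though goblet and enterocyte lists count as epithelial-like in the class rule. These were 1 and 4 in the medium-size and 4, 6, 7 and 9 in the large-size tumor. The gastric pit-like clusters 1 and 6 fell out by the goblet marker Agr2 alone, and cluster 9 by the B cell marker Ly6d alone. With 10 CPM added, Mgst1 went from 0.951 to 0.485 and Gsta4 from 0.546 to 0.493, so that 4 genes were then 2-fold lower, and Gstm1 went from 1.09 to 0.683. Gsta3 (0.0974) and Gstp1 (0.218) stayed low. The large-size clusters kept were 1, 3 and 5. Of the large-size epithelial-like clusters, cluster 1, with 3 of 11 epithelial markers, had the lowest levels of Gsta4 (36.0 CPM) and Mgst1 (38.3 CPM). The gastric pit-like clusters of both tumors were left out. Whether this mix of clusters set the lower ratios was not tested. Clusters of like state were also compared in pairs. In the gastric pit-like pair, clusters 1 and 6, Gsta4 was level (1034 and 980.2 CPM, ratio 0.948, 0.839 to 1.07), as was Gsto1 (1.01, 0.916 to 1.12), while Gsta3 was lower (0.288, 0.163 to 0.471), Mgst3 lower (0.567, 0.453 to 0.702), Mgst1 higher (2.15, 1.63 to 2.79) and Gstm1 higher (1.65, 1.24 to 2.17). Among cycling cells, clusters 2 and 5, Gsta3 had 279 UMIs in the medium-size and 0 in the large-size tumor, at least 15.6-fold lower, and Gsta4 had a ratio of 0.663 (0.572 to 0.766). Mgst3 was lower there (0.534, 0.446 to 0.636), and Mgst1 (0.977, 0.663 to 1.40) and Gstm1 (0.782, 0.534 to 1.12) had intervals that include 1. In the epithelial-like clusters highest in mesenchymal markers, 8 and 1, Mgst1 had 0.411 (0.234 to 0.678) and Gsto1 1.42 (1.25 to 1.60), while Mgst3 had an interval that includes 1 (1.10, 0.846 to 1.41). Gsta3, whose level in cluster 8 is not read as expression, was not compared, nor were Gsta4 and Gstm1, whose levels in cluster 1 overlapped those of the macrophage-like cells, where both were in the range of the epithelial markers. Gstp1, at 0 in the large-size tumor, was at least 3.78-fold, 9.19-fold and 4.05-fold lower in the gastric pit-like, cycling and mesenchymal pairs. Gsta3 was thus lower in the gastric pit-like and cycling pairs and Gstp1 in all 3. Gsto1 was level, lower (0.782, 0.704 to 0.866) and higher in turn, and Mgst1 was higher in the first pair and lower in the last.

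Base composition moved with the comparison of tumors. The median ratio of all genes fell from 1.17 where the last 500 bases of the transcript had under 35% GC to 0.591 where they had 60% or more. Gsta3 (34.6% GC) had a ratio of 0.107 with 10 CPM added, in the group of genes with the median of 1.17, and Gstp1 (53.6%) had 0.207 where the median was 0.713. Gsta4 (47.4%) at 0.546 lay below its median of 0.846, and Gsto1 (46.4%) at 0.876 lay near it. Mgst1 (34.8%) had 0.951 where the median was 1.17, Mgst3 (42.4%) 0.719 where it was 0.988, and Gstm1 (54.8%) 1.09 where it was 0.713. Of the 2276 genes within 1.5 times the total of Gstp1 in the medium-size tumor, 6, Gstp1 included, had 0 UMIs in the large-size tumor (0.264%). The median GC content of these 6 was 56.1% against 43.2% for the 2276, and the other 5 were Pigt (660 UMIs in the medium-size tumor), Bcam (651), Crct1 (576), Mpst (519) and the Y-linked Ddx3y (682). The X-linked Xist was among the 10 leading genes of large-size cluster 3, and whether the mice differed in sex was not tested. For Gstp1 82.4 UMIs would have been counted at its medium-size level. Of the 411 windows of 90 bases in the last 500 bases of Gstp1, 280 (68.1%) also occur in Gstp2 or Gstp-ps, so its reads can be split or dropped in counting. Gstp2 itself had 14 and 0 UMIs. Whether base composition or shared sequence set these ratios was not tested.

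**Figure D5:**
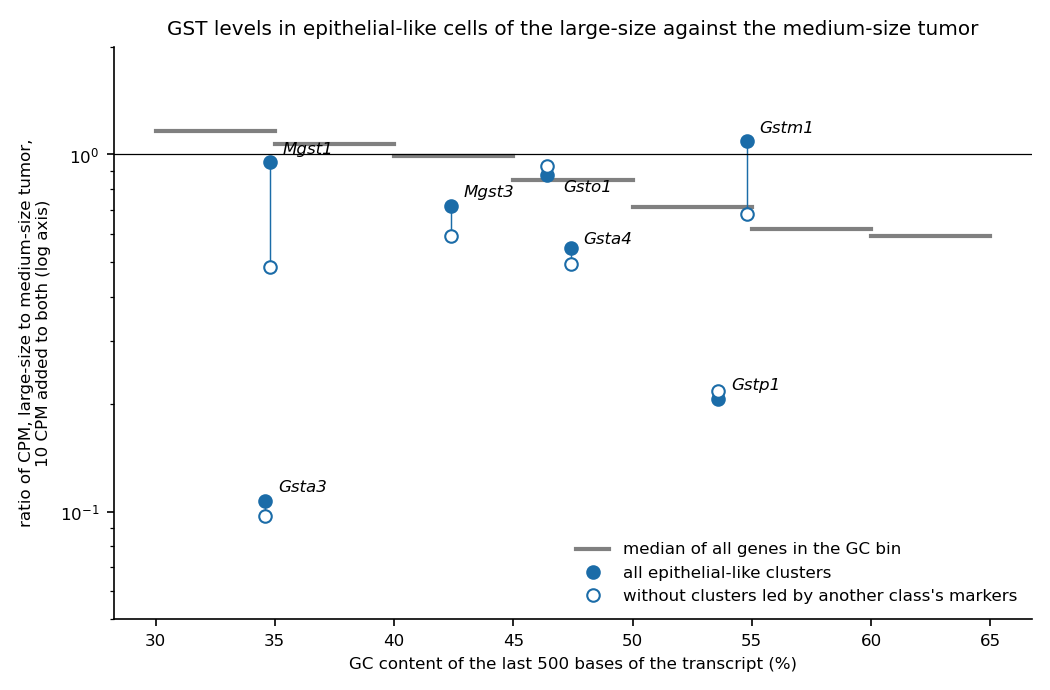
Ratio of CPM in epithelial-like cells, large-size to medium-size tumor with 10 CPM added (log axis), against GC content over the final 500 transcript bases, for 7 genes with all epithelial-like clusters (filled) and without clusters led by markers of another class (open). Grey lines are medians of all genes tested in bins of GC, of which the first and last are open-ended. Gsta3 and Gstp1 lie furthest below the grey lines, and Mgst1 and Gstm1 depend most on the clusters used.

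Of 23 other genes of the family, 21 had a row and 16 had at least 50 UMIs in a tumor. Gsta1, the closest relative of Gsta2, had the highest ratio of them with 10 CPM added (8.45), with 208 CPM against 15.8 in other named cells of the medium-size tumor (ratio 13.2, 8.84 to 20.6). It was highest in cluster 4 (852 CPM, 806 to 899) and cluster 6 (493, 457 to 531) there. In the large-size tumor its 1461 UMIs in epithelial-like cells made 746 CPM, and 72.2% of them lay in the enterocyte-marker cluster 4 at 4898 CPM (4607 to 5202). Its ratio between the tumors, with 10 CPM added, was 3.47 with all clusters and 0.492 without those led by markers of another class, so its direction rests on them. Of the windows in the last 500 bases of Gsta1, 77.9% occur in Gsta2 or Gm3776, and 10.5% of those of Gsta2 in Gsta1 or other copies, so the split between the 2 genes is uncertain. On chromosome 9 the protein-coding genes Gsta4 (78182774 to 78209349, plus strand), Gsta1 (78230656 to 78242684, plus) and Gsta2 (78331018 to 78355788, minus) lie in this order. What lies between them was not examined. Gsta3 lies on chromosome 1 (21240589 to 21265661, plus).

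Mgst2, a microsomal enzyme next of kin to Mgst3, had 121 CPM against 11.8 (ratio 10.2, 6.45 to 17.3), with its top in gastric pit-like cluster 1 (229 CPM) and its low in cluster 7 (18.8). Gstm5 had 80.5 against 33.5 CPM and Gstt1, of the theta class, 23.5 against 6.57, with 100.2 CPM in cluster 6. These 4 were the family genes at least 2-fold higher in epithelial-like cells, out of 11 tested, against 8.49% of all genes, and in the large-size tumor Gsta1 and Mgst2 were so, out of 2 tested, against 15.3%. The reverse held for Alox5ap, the activator of arachidonate lipoxygenase, with 10.3 against 431 CPM, and Ltc4s, the leukotriene synthase, with 6.14 against 162 CPM. Both had their UMIs mainly in macrophage-like cells, at 698 CPM (645 to 755) and 257 (226 to 292). Gstm2 (9.52 and 19.7 CPM), Gstt2 (16.5 and 9.86), Gstt3 (13.0 and 11.2), Gstz1 (16.1 and 7.23), Gstk1 (8.58 and 9.20), Gstcd (9.41 and 7.23), Ptges (25.3 and 26.3), Gstm4 (8.30 and 3.94), Gstm7 (2.82 and 0.657) and Gsto2 (3.65 and 0) did not reach the 2-fold line with 10 CPM added or had too few UMIs (epithelial-like and other named cells in each bracket). Between the tumors, with all clusters, Gstt1 was the 1 family gene of 10 tested that was 2-fold lower in the large-size tumor (23.5 and 4.59 CPM), a share near the 9.08% of all genes. Gsta1 was the 1 of 10 that was 2-fold higher, against 3.24% of all genes.

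A list of 45 genes of glutathione synthesis, use and control was set beside the 8. Of 39 with enough UMIs in the medium-size tumor, 11 were at least 2-fold higher in epithelial-like cells, against 8.49% of all genes, and 6 at least 2-fold lower, against 5.85%, and the median ratio was 1.23 against 1.14 for all genes and 4.01 for the 7 GST genes tested. Highest by ratio with 10 CPM added were Gpx2, the glutathione peroxidase of gut epithelium (728 against 119 CPM), the aldo-keto reductase Akr1b8 (254 against 66.4), the aldehyde dehydrogenase Aldh3a1 (35.5 against 3.94), and Gclm and Gss of glutathione synthesis (151 against 49.3 and 59.9 against 15.8). Lowest on this scale were the cystine carrier Slc7a11 (48.9 against 410.0), heme oxygenase Hmox1 (52.9 against 342), the secreted peroxidase Gpx3 (40.9 against 263), Gpx8 (14.2 against 58.5) and glutaredoxin Glrx (34.1 against 109.7). In the large-size tumor 6 of 17 were higher, Gpx2, Ggct, Me1, Akr1b8, Gclm and Gclc, against 15.3% of all genes, and 0 were lower, against 8.02%. Among epithelial-like clusters only Gpx2 (96.4 CPM in cluster 8 to 1751 in cluster 1, 16.5-fold) and Ugdh (60.6 in cluster 4 to 366 in cluster 8, 5.33-fold) of the 21 genes with at least 1000 UMIs spanned 4-fold, against 13.8% of all such genes. Gclc (3.82-fold), Gsr (3.19), Me1 (3.01) and Glo1 (2.80) came next of the 21, and Nfe2l2, the gene of NRF2 itself (1.62), Gss (1.61) and Adh5 (1.56) spanned least. Genes of the list with fewer UMIs were not counted, since no share over all such genes was computed, and some of them had wide spans, such as Ggct (18.6-fold, 802 UMIs) and Aldh3a1 (14.3-fold, 642 UMIs). Gsr, glutathione reductase, ran from 443 CPM in cluster 2 to 132 in cluster 6. Between tumors 8 of 39 were 2-fold lower in the large-size tumor, against 9.08% of all genes, Slc3a2, Gpx2, Gpx3, Gpx4, Prdx6, Akr1b8, Aldh3a1 and Cbr3, and 2, Ggct (2.68) and Srxn1 (2.01), were 2-fold higher, against 3.24%, of which Srxn1 turned to 0.750 and Ggct went to 3.14 without the clusters led by markers of another class.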

How the data were processed

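Single-cell RNA-seq counts of 2 KPC tumors were used, 1 of medium and 1 of large size. Per the labels, the authors ran Cell Ranger on mm10 (its version is not given in the sources used here) and deposited raw UMI counts per gene and cell, 1 table per tumor with 4 technical replicates pooled. The members and gene lists were chosen with earlier results of these data known. In R 4.3.3, Seurat 5.3.0 log-normalized and clustered the cells of each table (2000 variable genes without GST genes, 10 principal components, resolution 0.8). A class needed at least 3 of its markers, each in 10% of cells and at 25% of its highest cluster level, and a cluster with 60% of another class's share of markers stayed unnamed; these limits were set after the markers had been seen. UMIs were summed over cells to CPM with Python 3.11.15, pandas 2.3.3, numpy 2.4.6 and scipy 1.17.1, and cells were also thinned to 2500 (medium-size) or 500 (large-size) UMIs. Scrublet in scanpy 1.11.5 called 0 and 9 doublets (0% and 0.587%), too few in the medium-size tumor to count as a working call, and no cell was removed. Ratios had 10 CPM added and were called at 2-fold among genes with 200 UMIs, or for the span over clusters at 4-fold with 1000 UMIs. The code was tested on simulated data. Named besides the 8 were family genes with 50 UMIs in a table, the 6 largest and 3 smallest spans and up to 5 called ratios in each direction of the 45 pathway genes, and the 3 most similar genes per member. A few others were named after their values were seen, the called pathway genes in the large-size tumor and between tumors, the span of pathway genes under 1000 UMIs, the relative Gstp2, and the genes at 0 beside Gstp1. Alternatives covered clustering settings, classing by cell, averaging over cells, the added CPM, the UMI minimum, doublet scores, depth and TMM scaling (edgeR 4.0.16). The windows used for shared sequence were 90 bases long.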

Additional observations from a re-analysis of the deposited data

How the results depend on the processing

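The counts of genes past each fold were recomputed under each alternative that applies to them. Genes at least 2-fold higher in epithelial-like cells numbered 4 to 6 in the medium-size tumor (5 as reported) and 4 to 5 in the large-size tumor (4 as reported), and genes that spanned 4-fold numbered 4 to 5 (5 as reported). With the highest 5% of Scrublet scores left out, 1 gene, Mgst1 (0.497), was 2-fold lower in epithelial-like cells of the large-size tumor, against 0 as reported; the cause was not tested. Genes 2-fold lower in the large-size tumor went from 2 to 4 without clusters led by markers of another class, an alternative chosen after seeing the data, and were 2 or 3 under the others. Of 303 recomputed values of single genes, 258 moved by less than their counting interval, 45 moved by more, and none past its 2-fold or 4-fold line changed direction. Of ratios between tumors that were not past it, without clusters led by markers of another class Gstm1 went from 1.09 to 0.683 and Gsta2 from 1.25 to 0.813, and at resolution 1.2 Mgst1 went from 0.951 to 1.10. At resolution 1.2 the span of Gsta4 went from 22.0 to 39.8, that of Gsta3 from 32.5 to 52.2, that of Gsto1 from 3.05 to 5.64 and that of Mgst3 from 4.51 to 2.93, and at resolution 0.4 Mgst3 spanned 3.59-fold. The lowest level in the reported Gsta3 span, that of cluster 3, is not read as expression, so 32.5 is not an exact fold. Gstp1 passed the 2-fold line of epithelial-like against other named cells in the medium-size tumor under 5 of 9 alternatives (2.01 to 2.44) and went from 1.92 to 1.24 where each cell was classed by its own markers. Gsta4 passed that of 2-fold lower in the large-size tumor by the mean of cell CPM (0.491) and with the medium-size tumor thinned (0.480). Depth limits Gsta2 and, in the large-size tumor, Gsta3 and Gstp1, where 3 counts equal 5.08 CPM in cluster 5 and 18.8 CPM in cluster 7. No paired analysis was possible because the technical replicates of each tumor are pooled in 1 table and their barcodes do not tell them apart, which also kept any replicate from being left out.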
